A study of Mus musculus with 24 samples.

Results

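The 10 genes studied here break down heme or store, export and take up iron, and they were followed through all 24 RNA-seq libraries of cultured mouse macrophages. They were chosen by name: *Hmox1*, *Blvra* and *Blvrb* (heme breakdown), *Fth1* and *Ftl1* (iron storage), *Slc40a1* and *Heph* (iron export), and *Tfrc*, *Slc11a1* and *Slc11a2* (iron uptake and transport across internal membranes). All 10 were among the 35770 named genes of the deposited table and among the 13661 that passed a filter on low values. The macrophages were bone marrow-derived macrophages (BMDMs) of C57BL/6 mice grown with M-CSF, the growth factor that turns marrow precursors into macrophages. They were kept in control media or in conditioned medium (CM) from LL2 cells, a Lewis lung carcinoma line of the same mouse strain, which were wild type (WT), *KEAP1* KO or *NRF2* KO. Each of the 4 media was given with vehicle or with 100 nM CDDO-Me for 24 h, which makes 8 groups of 3 libraries. CDDO-Me is a synthetic oleanane triterpenoid that activates the transcription factor NRF2. The knockouts were made by CRISPR in the cancer cells, so the macrophages of every group carried both genes intact. LL2 cells had conditioned their medium for 48 h, and CM made up 75% of the culture medium. The labels call the 3 libraries of a group independent samples but do not say from how many mice the marrow came, so each p-value measures the spread between these libraries.

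Macrophages recycle iron from old red cells. Heme oxygenase 1 (*Hmox1*) opens the heme ring, which frees iron and carbon monoxide and leaves biliverdin, and the biliverdin reductases (*Blvra*, *Blvrb*) turn biliverdin into bilirubin. Freed iron is kept in ferritin, a shell of heavy (*Fth1*) and light (*Ftl1*) chains, or leaves through ferroportin (*Slc40a1*), helped by ferroxidases such as hephaestin (*Heph*). Transferrin receptor 1 (*Tfrc*) brings in transferrin-bound iron, NRAMP1 (*Slc11a1*) moves metal out of the phagosome, and DMT1 (*Slc11a2*) moves it out of endosomes. NRF2 is released from its inhibitor KEAP1 under electrophilic stress and is a known activator of *Hmox1*, *Blvrb*, both ferritin chains and *Slc40a1* through antioxidant response elements. BACH1 holds many of the same elements closed until heme binds it. Another layer of control acts on the mRNA. When iron is scarce, iron regulatory proteins bind a hairpin named the iron-responsive element (IRE). In a 5′ UTR the bound hairpin blocks translation, and in the *Tfrc* 3′ UTR it protects the message from decay.

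The values were TPM, the share of each gene in all transcripts after correction for transcript length, so levels can be compared between genes, while the read depth of each library is unknown. A gene was called where limma, run on log2(TPM + 1) of all genes and libraries, gave a Benjamini-Hochberg adjusted p under 0.05. A log2 fold change is on that scale. The replicate 3 libraries of NRF2 KO CM/vehicle and NRF2 KO CM/CDDO-Me stood apart, with 15702 and 16299 genes above 0 against 17817 to 18993 in the other libraries. Some results that rest on them are also given without them, and the other NRF2 KO CM values include both libraries. Macrophage markers summed to 14888 to 38321 TPM and were led by *Lyz2*. The erythroid list summed to 0.338 to 2.98 TPM, and none of its 9 genes had a mean of 1 TPM. Fibroblast and stroma markers summed to 345 to 3787 TPM over 10 genes, and proliferation genes to 40.4 to 340 TPM.

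IRE-type hairpins are shown for the members that matched 1 strict pattern. The 5′ and 3′ UTRs of GENCODE transcripts (GRCm39) were searched for an unpaired C, 5 bases, the loop CAGTGN and 5 bases that pair with the first 5, with at most 1 G-T pair. *Fth1*, *Ftl1* and *Slc40a1* hold 1 match each in the 5′ UTR, as do 0.124% of genes, and *Tfrc* holds 4 in the 3′ UTR, where 0.32% of genes hold any. The other 6 members had no match to these letters. Each sequence is written 5′ to 3′ on the strand of the gene, with the loop in capitals.
Fth1, 5′ UTR, chr19:9960097-9960123, plus strand: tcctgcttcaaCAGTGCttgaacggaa
Ftl1, 5′ UTR, chr7:45109204-45109230, minus strand: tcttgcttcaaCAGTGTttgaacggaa
Slc40a1, 5′ UTR, chr1:45964626-45964652, minus strand: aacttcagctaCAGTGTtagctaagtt
Tfrc, 3′ UTR, chr16:32450038-32450064, plus strand: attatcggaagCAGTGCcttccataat
Tfrc, 3′ UTR, chr16:32450417-32450443, plus strand: attatcgggagCAGTGTcttccataat
Tfrc, 3′ UTR, chr16:32450482-32450508, plus strand: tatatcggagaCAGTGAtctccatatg
Tfrc, 3′ UTR, chr16:32450529-32450555, plus strand: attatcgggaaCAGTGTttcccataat

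The DNA upstream of the members was searched, on both strands, for the core antioxidant response element TGACNNNGC and for the longer TGANTCAGCA. The longer motif holds the core only where its N is C. In the 10000 bases before the start of the canonical transcript the core was found 11 times for *Hmox1*, a number that 0.246% of 21583 genes reach. It was found 7 times for *Fth1* (6% of genes have as many), 6 times for *Blvrb* (12.1%), 4 times for *Slc11a1* (37.9%) and 3 times for *Ftl1*, which equals the median gene. *Tfrc* had 1, and *Blvra*, *Slc40a1*, *Heph* and *Slc11a2* had 2 each. Nearer the start, from 250 bases before to 50 after, *Blvra* alone of the 10 held the core, as did 12.5% of genes. The longer motif lay upstream of 4 members, at 2 places for *Hmox1* (1.61% of genes have as many) and at 1 place each for *Fth1*, *Ftl1* and *Slc11a1* (14.3%). These 5 matches are shown as 30 bases each, 5′ to 3′ on the strand of the gene (minus for *Ftl1*, plus for the others), with the motif or its reverse complement in capitals. The *Slc11a1* match has G in place of that C, so it does not hold the core. A match describes the letters and shows no binding.
Hmox1, chr8:75810566-75810595: gtgccttttcTGCTGAGTCAaggtccgggg
Hmox1, chr8:75816367-75816396: agacagatttTGCTGAGTCAccctctgttc
Fth1, chr19:9955993-9956022: aggagcagaaTGCTGAGTCAcggtggaaca
Ftl1, chr7:45110392-45110421: gagctcagcgTGACTCAGCAgaactggcct
Slc11a1, chr1:74406309-74406338: taccacaagaTGAGTCAGCAacctggggat

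**Figure D1:**
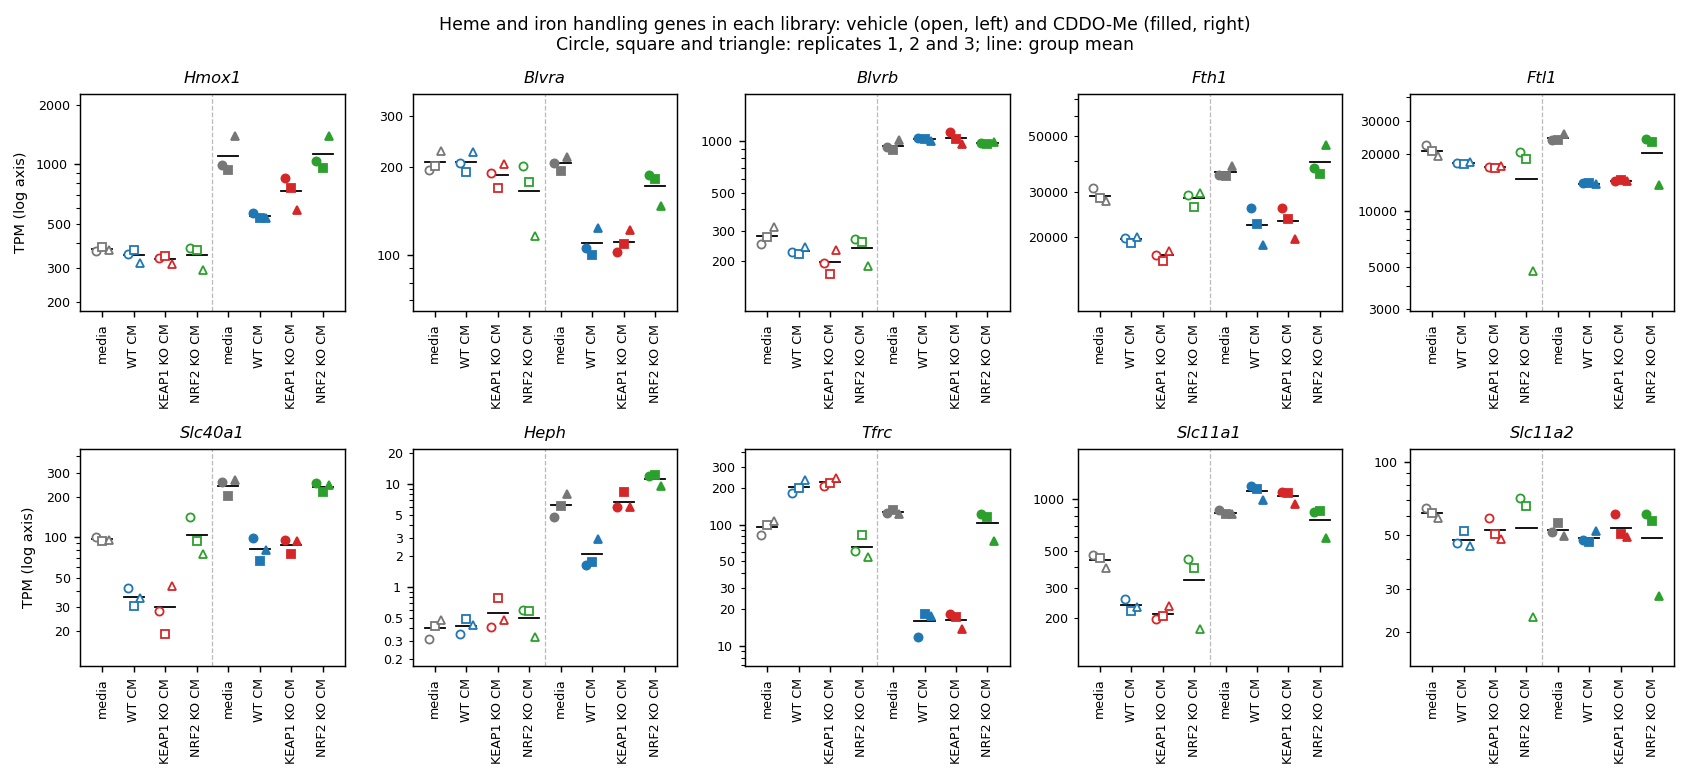
TPM (log axis) of the 10 genes, 1 panel each, with vehicle groups open on the left and CDDO-Me groups filled on the right; marker shapes give the replicate and lines the group mean. *Hmox1*, *Blvrb*, *Heph* and *Slc11a1* are higher in every CDDO-Me group than in any vehicle group, and *Tfrc* is at 11.9 to 18.4 TPM in WT CM and KEAP1 KO CM with CDDO-Me.

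The first question was what CM of each cancer cell genotype did to these genes in the absence of drug. In WT CM/vehicle BMDMs the iron importer *Tfrc* rose, and the exporter *Slc40a1* and the phagosomal transporter *Slc11a1* fell, relative to media/vehicle BMDMs. KEAP1 KO CM/vehicle BMDMs showed these 3 changes and also lower *Blvrb* and *Fth1*. That is 3 of 10 members called in WT CM (1 higher, 2 lower) where 7.34% of all tested genes were called (4.33% higher, 3.02% lower), and 5 of 10 in KEAP1 KO CM (1 higher, 4 lower) where 7.96% were (4.65% higher, 3.31% lower). None of the 10 was called in NRF2 KO CM by limma, where 0.00732% of all genes were called, and 4 members (*Blvra*, *Ftl1*, *Tfrc*, *Slc11a1*) had an unadjusted p under 0.05 there. The comparisons of the 3 CMs share the media/vehicle libraries, so they are not independent of each other. In bulk RNA, fewer cells of a type and less RNA per cell cannot be told apart.

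*Tfrc* (chromosome 16, 32427556 to 32451612, plus strand, GRCm39) was at 82.1, 99.6 and 108 TPM in media/vehicle. It reached 182, 203 and 235 TPM in WT CM/vehicle and 210, 220 and 242 TPM in KEAP1 KO CM/vehicle, with no overlap with media. The log2 fold changes were 1.16 in WT CM (adjusted p = 0.00012) and 1.20 in KEAP1 KO CM (adjusted p = 7.1e-05), each with a standard error (SE) of 0.17. In NRF2 KO CM/vehicle the libraries were at 60.5, 82.2 and 54.6 TPM, the lowest vehicle group, with a log2 difference from media of -0.53 that was not called (adjusted p = 0.40). Proliferation genes summed to 154 to 205 TPM in media/vehicle, 167 to 235 TPM in WT CM/vehicle, 235 to 340 TPM in KEAP1 KO CM/vehicle and 197 to 237 TPM in NRF2 KO CM/vehicle, and their part in the *Tfrc* levels was not tested.

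*Slc40a1* (chromosome 1, 45947211 to 45965683, minus strand) encodes ferroportin, the only known cellular iron exporter. Its media/vehicle libraries were at 100, 93.8 and 94.7 TPM. In WT CM/vehicle they were at 41.8, 30.8 and 35.1 TPM and in KEAP1 KO CM/vehicle at 28.0, 18.8 and 43.0 TPM, so both groups lay wholly below media. The log2 fold changes were -1.34 (SE 0.25, adjusted p = 0.0018) and -1.73 (SE 0.25, adjusted p = 0.00012). NRF2 KO CM/vehicle libraries, at 142, 93.1 and 74.3 TPM, spanned the media values. Fibroblast and stroma markers summed to 1524 to 2500 TPM in media/vehicle, 945 to 1912 TPM in WT CM/vehicle and 1368 to 2574 TPM in KEAP1 KO CM/vehicle, overlapping between the groups. Macrophage markers summed to 22110 to 22639 TPM in media/vehicle and lay lower, with no overlap, in WT CM/vehicle (17258 to 17903 TPM) and KEAP1 KO CM/vehicle (16604 to 20375 TPM). So did lymphocyte markers, of which 7 of 8 had a mean below 1 TPM, at 12.5 to 15.0 TPM, 5.98 to 6.43 TPM and 5.25 to 7.14 TPM. The 2 sums were 23399 to 26800 TPM and 14.0 to 17.1 TPM in NRF2 KO CM/vehicle, and their part in the *Slc40a1* levels was not tested.

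*Slc11a1* (chromosome 1, 74414303 to 74425448, plus strand) was at 473, 455 and 396 TPM in media/vehicle, 261, 220 and 234 TPM in WT CM/vehicle and 199, 206 and 237 TPM in KEAP1 KO CM/vehicle. It fell by 0.82 on the log2 scale in WT CM (SE 0.20, adjusted p = 0.013) and by 1.05 in KEAP1 KO CM (SE 0.20, adjusted p = 0.0014). The WT CM call was lost without media/vehicle replicate 1 (adjusted p = 0.0643) or WT CM/vehicle replicate 2 (adjusted p = 0.0660). In NRF2 KO CM/vehicle, replicates 1 and 2 were at 444 and 396 TPM and replicate 3, a library that stood apart, at 174 TPM. The log2 difference from media was -0.46 with that library (adjusted p = 0.41) and -0.11 without both such libraries.

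*Fth1* (chromosome 19, 9957911 to 9962462, plus strand) was the most abundant transcript of the whole table, with a mean of 26931 TPM over the 24 libraries, and *Ftl1* (chromosome 7, 45107367 to 45109308, minus strand) ranked 3, with 17914 TPM. The 2 chains together made up 3.24 to 6.34% of all TPM. *Fth1* was at 31230, 28480 and 27673 TPM in media/vehicle, at 19818, 18985 and 19982 TPM in WT CM/vehicle and at 17076, 16157 and 17583 TPM in KEAP1 KO CM/vehicle. Neither CM overlapped media, as 35% and 35.8% of all genes lay apart in these comparisons. *Fth1* fell by 0.79 in KEAP1 KO CM (SE 0.19, adjusted p = 0.011). That call was lost without media/vehicle replicate 1 (adjusted p = 0.0575) or KEAP1 KO CM/vehicle replicate 2 (adjusted p = 0.0554), and with no filter on low values (adjusted p = 0.646). The log2 difference in WT CM was -0.50 (95% interval -0.90 to -0.11, adjusted p = 0.13), and it was called without the 2 libraries that stood apart (-0.52, adjusted p = 0.0068). NRF2 KO CM/vehicle libraries, at 29382, 26393 and 29870 TPM, lay within or next to the media range.

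*Ftl1* was called in none of the 13 comparisons, with a lowest adjusted p of 0.213. Its mean went from 20830 ± 1353 TPM (SD, n = 3) in media/vehicle to 17878 ± 185 TPM in WT CM/vehicle and 17030 ± 161 TPM in KEAP1 KO CM/vehicle. Both CM groups lay below every media library, as 35% and 35.8% of all genes lay apart in the same comparisons. The log2 differences were -0.15 (adjusted p = 0.91) and -0.30 (adjusted p = 0.74). The wide spread came from NRF2 KO CM/vehicle, where replicates 1 and 2 were at 20384 and 18844 TPM and replicate 3 at 4793 TPM, and from NRF2 KO CM/CDDO-Me, at 23878, 23114 and 13681 TPM. In those 2 replicate 3 libraries the *Fth1* to *Ftl1* ratio was 6.23 and 3.38 against 0.959 to 1.88 elsewhere. Without them the *Ftl1* difference of KEAP1 KO CM from media was called (-0.30, adjusted p = 0.0095). Near-identical copies of the ferritin genes can take reads from them. *Ftl1-ps1* was listed at 10.3 to 83.0 TPM, highest in the same libraries (58.7 and 83.0 TPM). Its part in the *Ftl1* levels there was not tested.

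**Figure D2:**
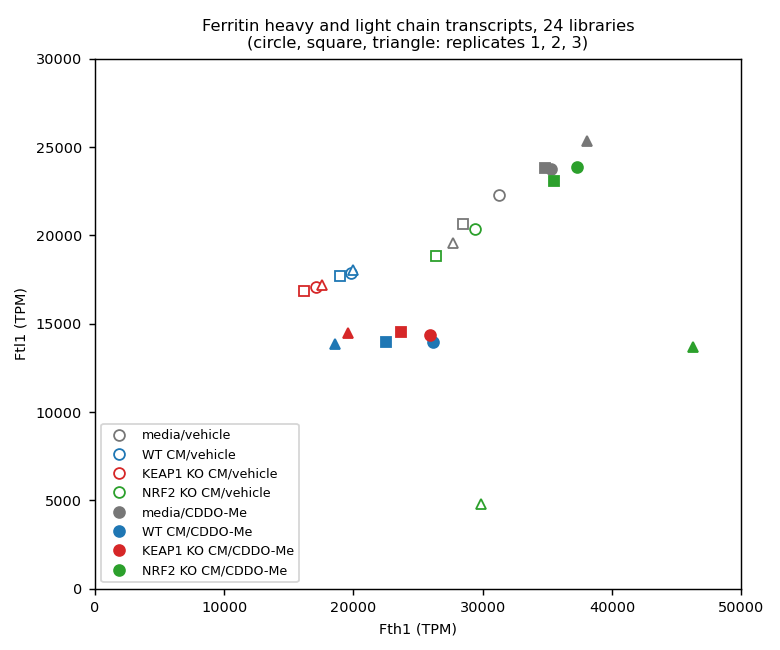
*Ftl1* (y axis, TPM) against *Fth1* (x axis, TPM) in the 24 libraries; colour gives the medium, filled symbols CDDO-Me, and shape the replicate. The replicate 3 libraries of NRF2 KO CM lie off the others at 4793 and 13681 TPM of *Ftl1*, and the CDDO-Me libraries of WT CM and KEAP1 KO CM have the next lowest *Ftl1*.

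Of the heme breakdown genes, only *Blvrb* was called with CM alone, and only in KEAP1 KO CM. *Hmox1* (chromosome 8, 75820241 to 75827217, plus strand) was at 372 ± 8.94 TPM in media/vehicle, 346 ± 26.2 TPM in WT CM/vehicle, 331 ± 16.2 TPM in KEAP1 KO CM/vehicle and 346 ± 45.7 TPM in NRF2 KO CM/vehicle (SD, n = 3), and neighbours in the order of their means overlapped. *Blvrb* (chromosome 7, 27147275 to 27165569, plus strand) was at 251, 277 and 315 TPM in media/vehicle and at 194, 169 and 233 TPM in KEAP1 KO CM/vehicle. It fell by 0.52 (SE 0.14, adjusted p = 0.024), a call that was lost without media/vehicle replicate 2 (adjusted p = 0.0595) or 3 (0.131), or without KEAP1 KO CM/vehicle replicate 1 (0.0805) or 2 (0.167). In WT CM the difference was -0.23 (adjusted p = 0.46). *Blvra* (chromosome 2, 126912556 to 126939017, plus strand) had vehicle means of 165 to 208 TPM, all overlapping.

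**Figure D3:**
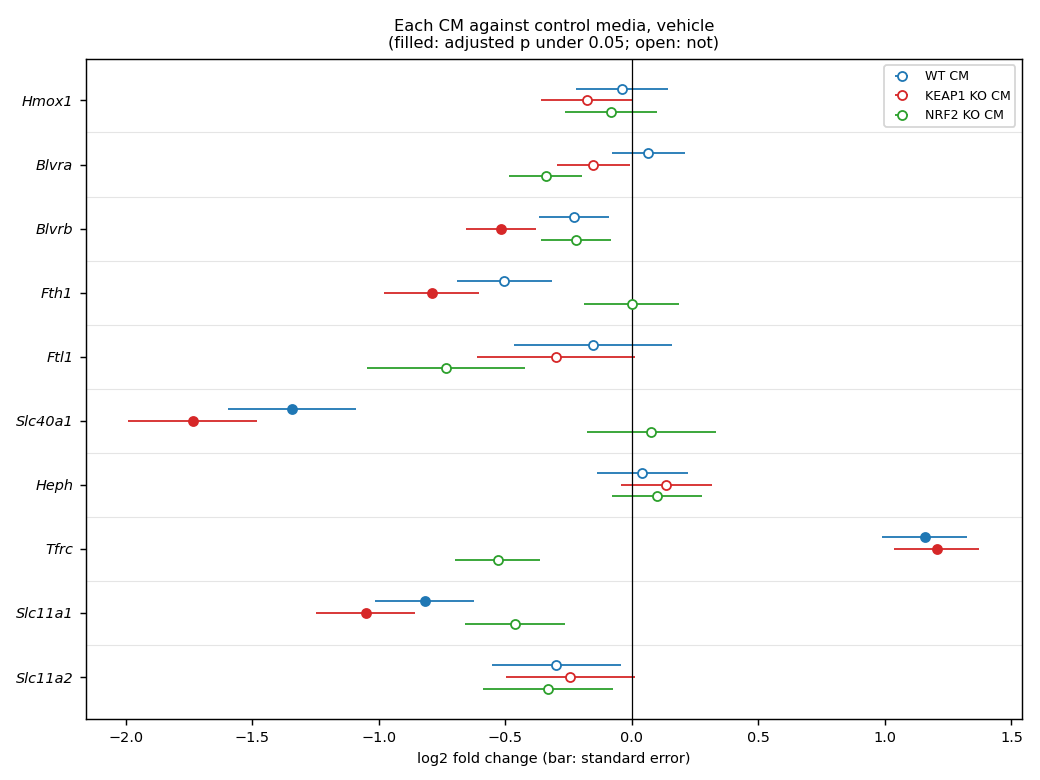
Log2 fold change (x axis, bars are the standard error) of each gene in WT, KEAP1 KO and NRF2 KO CM against control media, all with vehicle; filled points passed an adjusted p of 0.05. *Tfrc* lies to the right at 1.16 and 1.20 and *Slc40a1* to the left at -1.34 and -1.73 in WT CM and KEAP1 KO CM, and no NRF2 KO CM point is filled.

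KEAP1 KO CM and WT CM were compared directly, to ask whether loss of *KEAP1* in the cancer cells altered these genes in macrophages. None of the 10 members was called by limma, none had an unadjusted p under 0.05, and 0% of all genes were called. The intervals still leave room for modest differences. For *Tfrc* the log2 difference was 0.05 (95% interval -0.31 to 0.40), and leaving out single libraries moved it between -0.05 and 0.17. For *Slc40a1* it was -0.39 (-0.92 to 0.14), for *Blvrb* -0.29 (-0.58 to 0.00) and for *Fth1* -0.29 (-0.68 to 0.11). For both ferritin chains all 3 KEAP1 KO CM libraries lay below all 3 of WT CM (*Fth1* 16157 to 17583 against 18985 to 19982 TPM, *Ftl1* 16853 to 17166 against 17702 to 18071 TPM), as 13.6% of genes did not overlap in this comparison. WT CM and NRF2 KO CM differed for 2 members where 10.7% of genes were called (6.56% higher, 4.11% lower). *Tfrc* was higher in WT CM by 1.69 (SE 0.17, adjusted p = 1.3e-06) and *Slc40a1* lower by a log2 difference of -1.42 (SE 0.25, adjusted p = 0.0011). In a fit of these 2 groups alone the *Slc40a1* call was lost (adjusted p = 0.0577). Without the 2 libraries that stood apart 4 members were called.

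CDDO-Me was then compared with vehicle in each medium. The 5 members that rose in all 4 media were *Hmox1*, *Blvrb*, *Slc40a1*, *Heph* and *Slc11a1*. Of all tested genes 182, or 1.33%, did so. *Heph*, below 1 TPM in every vehicle library, passed the filter on low values only through its CDDO-Me libraries. No member was lower in all 4 media, as 1.55% of genes were. *Tfrc* fell from 207 to 15.9 TPM in WT CM and from 224 to 16.4 TPM in KEAP1 KO CM, while it stood at 96.6 and 126 TPM without and with CDDO-Me in control media. *Blvra* fell in WT CM and KEAP1 KO CM, *Fth1* rose in KEAP1 KO CM, and *Ftl1* and *Slc11a2* were called in no medium. By medium, 5 of 10 members were called in control media (all higher) where 6.02% of all genes were (3.07% higher, 2.94% lower). In WT CM 7 were called (5 higher, 2 lower) where 27.8% of genes were (13.9% higher, 13.9% lower), and in KEAP1 KO CM 8 (6 higher, 2 lower) where 28.8% were (14.5% higher, 14.2% lower). In NRF2 KO CM 6 were called (all higher) where 9.78% of genes were (4.49% higher, 5.29% lower). The median log2 fold change of the 10 members was 0.66 in media, 0.53 in WT CM, 0.95 in KEAP1 KO CM and 0.97 in NRF2 KO CM. Of 6 classical NRF2 target genes, 5 (*Nqo1*, *Gclm*, *Txnrd1*, *Srxn1*, *Slc7a11*) were also higher in all 4 media, with *Nqo1*, a quinone reductase, up by 3.67 to 5.35. *Gclc*, a subunit of the first enzyme of glutathione synthesis, was not called in WT CM (0.66, adjusted p = 0.094).

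*Hmox1*, the enzyme that opens heme, had its smallest rise in WT CM. With CDDO-Me its libraries were at 989, 940 and 1393 TPM in control media, 564, 533 and 537 TPM in WT CM, 852, 756 and 587 TPM in KEAP1 KO CM and 1036, 954 and 1390 TPM in NRF2 KO CM, all above the vehicle range of 294 to 382 TPM. The log2 fold changes were 1.56 (adjusted p = 1.3e-05), 0.77 (0.0028), 1.30 (1.2e-05) and 1.69 (2.9e-06), each with an SE of 0.18. In the order of the 8 groups NRF2 KO CM/CDDO-Me and media/CDDO-Me overlapped at the top. KEAP1 KO CM/CDDO-Me and then WT CM/CDDO-Me followed apart from them, though CDDO-Me groups were not tested against each other. The 4 vehicle groups came last, and neighbours among them overlapped. KEAP1 KO CM/vehicle (313 to 345 TPM) lay wholly below media/vehicle (365 to 382 TPM), as 35.8% of all genes lay apart there. The rise in WT CM was smaller than in control media by 0.79 (SE 0.26, adjusted p = 0.043). This call was lost in 10 of the 12 refits without a single library, with adjusted p up to 0.126. Among these refits it was kept without media/CDDO-Me replicate 1 or 2.

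*Blvrb*, which reduces biliverdin and flavins, had its largest rise in KEAP1 KO CM. From vehicle means of 281 ± 32.1, 229 ± 12.4, 199 ± 32.2 and 238 ± 43.7 TPM (media, WT CM, KEAP1 KO CM, NRF2 KO CM; SD, n = 3) it came to 943 ± 61.8, 1028 ± 20.5, 1042 ± 87.2 and 971 ± 12.0 TPM. The vehicle libraries ended at 315 TPM and the CDDO-Me libraries began at 891 TPM. The log2 fold changes were 1.75, 2.28, 2.57 and 2.05 (SE 0.14, adjusted p from 2.2e-11 to 1e-07). With CDDO-Me the KEAP1 KO CM and WT CM groups overlapped, as did NRF2 KO CM and control media, and CDDO-Me groups were not tested against each other. The rise from vehicle was larger in KEAP1 KO CM than in control media by 0.82 (SE 0.20, adjusted p = 0.0062). In WT CM it was larger by 0.53 (adjusted p = 0.084), which passed with the replicate number as a block (adjusted p = 0.039).

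*Blvra*, the main adult biliverdin reductase, did not follow *Blvrb*. In WT CM its libraries went from 207, 193 and 225 TPM with vehicle to 106, 100 and 124 TPM with CDDO-Me, and in KEAP1 KO CM from 192, 170 and 205 TPM to 102, 109 and 122 TPM. The groups did not overlap, and the log2 fold changes were -0.81 (SE 0.14, adjusted p = 0.00019) and -0.59 (SE 0.14, adjusted p = 0.0035). In control media it stayed between 194 and 228 TPM with and without CDDO-Me. The CDDO-Me effect in WT CM was lower than in control media by a log2 difference of -0.80 (SE 0.20, adjusted p = 0.0096). In KEAP1 KO CM that difference was -0.58 (adjusted p = 0.063), or called with the replicate number as a block (adjusted p = 0.032).

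The ferritin chains moved less. *Fth1* had CDDO-Me libraries at 35301, 34799 and 38060 TPM in control media, 26154, 22506 and 18576 TPM in WT CM, 25936, 23654 and 19614 TPM in KEAP1 KO CM and 37323, 35508 and 46272 TPM in NRF2 KO CM. It rose in KEAP1 KO CM by 0.61 (SE 0.19, adjusted p = 0.018), a call lost without KEAP1 KO CM/vehicle replicate 2 (0.0745), without KEAP1 KO CM/CDDO-Me replicate 1 (0.0935) or with no filter on low values (0.607). The values in the other media were 0.31 (adjusted p = 0.49), 0.29 (0.30) and 0.47 (0.14) in control media, WT CM and NRF2 KO CM. *Ftl1* libraries lay on the other side of vehicle in these 2 CMs. They were at 13947, 13967 and 13858 TPM in WT CM/CDDO-Me and 14344, 14509 and 14447 TPM in KEAP1 KO CM/CDDO-Me, below every library of the matching vehicle groups. In control media they were at 23755, 23820 and 25373 TPM with CDDO-Me, above the vehicle libraries. Of all genes 53.5%, 54.1% and 31.5% did not overlap in these comparisons. The log2 differences of *Ftl1* were 0.23 in media, -0.25 in WT CM, -0.07 in KEAP1 KO CM and 0.68 in NRF2 KO CM, none called (adjusted p from 0.21 to 0.92). Without the 2 libraries that stood apart, those of control media (0.24, adjusted p = 0.038) and WT CM (-0.20, adjusted p = 0.038) were called.

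The exporter *Slc40a1* rose in every medium, from different starting levels. CDDO-Me libraries were at 256, 204 and 264 TPM in control media, 97.7, 66.7 and 80.4 TPM in WT CM, 94.9, 75.1 and 92.8 TPM in KEAP1 KO CM and 251, 218 and 243 TPM in NRF2 KO CM. The log2 fold changes were 1.31 (adjusted p = 0.0025), 1.27 (0.00064), 1.75 (1.9e-05) and 1.25 (0.0026), each with an SE of 0.25, and no difference between media was called. With CDDO-Me, WT CM (81.6 ± 15.5 TPM) and KEAP1 KO CM (87.6 ± 10.9 TPM) had means below media/vehicle (96.2 ± 3.52 TPM). The libraries of both overlapped those of media/vehicle, and neither was tested against it. In a fit of the NRF2 KO CM groups alone the call in that medium was lost (adjusted p = 0.0847).

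*Heph*, a membrane ferroxidase best known from the gut, rose from under 1 TPM to low levels. The 12 vehicle libraries were at 0.308 to 0.787 TPM. With CDDO-Me they were at 4.82, 6.06 and 7.92 TPM in control media, 1.62, 1.76 and 2.93 TPM in WT CM, 5.95, 8.29 and 5.99 TPM in KEAP1 KO CM and 11.9, 12.2 and 9.49 TPM in NRF2 KO CM. *Heph* thus passed the filter of above 1 TPM in at least 3 libraries only through its CDDO-Me libraries. Its tests of CDDO-Me and of differences between media in that effect are not independent of this filter. NRF2 KO CM/CDDO-Me was the highest group and WT CM/CDDO-Me the lowest of the CDDO-Me groups, each apart from its neighbours. Levels of the CDDO-Me groups were not tested against each other. The ratio of mean TPM was 15.7 in media, 5.01 in WT CM, 12.1 in KEAP1 KO CM and 22.3 in NRF2 KO CM, and the log2 fold changes, in that order, were 2.33, 1.18, 2.43 and 3.01 (SE 0.18, adjusted p from 2.2e-09 to 3.1e-05). At such levels the pseudocount compresses the change, and with 0.1 in place of 1 the values were 3.65, 2.15, 3.57 and 4.26. The rise in WT CM was smaller than in control media by 1.14 (SE 0.25, adjusted p = 0.0032). KEAP1 KO CM exceeded WT CM by 1.24 (95% interval 0.71 to 1.77, unadjusted p = 9.7e-05 by limma), which did not pass over all genes (adjusted p = 0.60). *Heph* lies on chromosome X, 95498965 to 95621010, plus strand.

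*Tfrc* had a highest group mean 14.1 times its lowest, a range that only *Heph* among the members exceeded (28.1 times). In WT CM its libraries went from 182, 203 and 235 TPM to 11.9, 18.4 and 17.5 TPM with CDDO-Me, and in KEAP1 KO CM from 210, 220 and 242 TPM to 18.2, 17.2 and 13.8 TPM. It fell by 3.53 (SE 0.17, adjusted p = 3.5e-12) and by 3.54 (SE 0.17, adjusted p = 3.2e-12). In control media, CDDO-Me libraries were at 124, 133 and 122 TPM, with a log2 difference of 0.40 (adjusted p = 0.22). They lay above the vehicle libraries, as 31.5% of all genes lay apart there. In NRF2 KO CM they were at 122, 115 and 73.1 TPM, overlapping vehicle (60.5, 82.2 and 54.6 TPM). The rise of 0.64 there (adjusted p = 0.019) was lost without NRF2 KO CM/vehicle replicate 1 (0.0656), NRF2 KO CM/CDDO-Me replicate 1 (0.0965) or 2 (0.0670), and in a fit of these groups alone (0.297). The effect of CDDO-Me differed from that in control media by -3.93 in WT CM (SE 0.24, adjusted p = 3.6e-10) and by -3.93 in KEAP1 KO CM (SE 0.24, adjusted p = 3.4e-10). The 2 media with the highest *Tfrc* under vehicle were the 2 with the lowest under CDDO-Me.

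Other marker lists moved in the same libraries. Proliferation genes summed to 56.4 to 69.2 TPM in WT CM/CDDO-Me and 60.6 to 76.7 TPM in KEAP1 KO CM/CDDO-Me, below their vehicle groups (167 to 235 TPM and 235 to 340 TPM). They were also lower with CDDO-Me in control media (97.3 to 122 TPM against 154 to 205 TPM) and NRF2 KO CM (40.4 to 120 TPM against 197 to 237 TPM). Fibroblast and stroma markers summed to 390 to 1001 TPM in WT CM/CDDO-Me and 345 to 1362 TPM in KEAP1 KO CM/CDDO-Me, against 1501 to 3692 TPM in media/CDDO-Me and 813 to 2789 TPM in NRF2 KO CM/CDDO-Me. Neutrophil markers, 5 of 7 with a mean below 1 TPM, summed to 10.9 to 34.2 TPM over the vehicle libraries and 31.0 to 72.8 TPM over the CDDO-Me libraries, with 15.4 to 24.4 TPM and 64.7 to 72.8 TPM in KEAP1 KO CM. The 4 dendritic cell markers, each with a mean below 1 TPM, summed to 0.743 to 1.13 TPM in WT CM/vehicle and 3.58 to 5.16 TPM in WT CM/CDDO-Me, and to 1.03 to 1.15 TPM and 2.47 to 3.17 TPM in KEAP1 KO CM. In control media (1.07 to 1.40 TPM and 1.00 to 1.57 TPM) and NRF2 KO CM (1.12 to 1.71 TPM and 1.24 to 1.52 TPM) the dendritic cell sums overlapped. The part of these lists in the levels of *Tfrc*, *Blvra*, *Slc11a1* and *Slc40a1* was not tested.

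*Slc11a1*, which lets macrophages withhold metal from engulfed microbes, rose in all 4 media, and by more in WT CM and KEAP1 KO CM than in control media. CDDO-Me libraries were at 864, 821 and 821 TPM in control media, 1194, 1157 and 994 TPM in WT CM, 1109, 1087 and 940 TPM in KEAP1 KO CM and 841, 849 and 593 TPM in NRF2 KO CM, all above the matching vehicle libraries. The log2 fold changes were 0.93 (adjusted p = 0.0056), 2.33 (1.7e-08), 2.46 (7.7e-09) and 1.26 (0.00022), each with an SE of 0.20. In a fit of the NRF2 KO CM groups alone the last call was lost (adjusted p = 0.170). The rise was larger than in control media by 1.40 in WT CM (SE 0.28, adjusted p = 0.0012) and by 1.53 in KEAP1 KO CM (SE 0.28, adjusted p = 0.00057). *Slc11a2* (chromosome 15, 100285776 to 100322953, minus strand), the endosomal transporter, was called nowhere (lowest adjusted p = 0.496), and its group means lay between 47.8 and 61.7 TPM, all neighbours overlapping. WT CM/vehicle (45.0 to 52.1 TPM) and KEAP1 KO CM/vehicle (48.2 to 58.5 TPM) lay below media/vehicle (58.9 to 64.4 TPM), as 35% and 35.8% of all genes lay apart. The 2 libraries that stood apart were at 23.1 TPM (vehicle) and 28.2 TPM (CDDO-Me), against 56.9 to 71.1 TPM in the other NRF2 KO CM libraries. They widen the spread of this gene, and no fit without them is given for it.

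**Figure D4:**
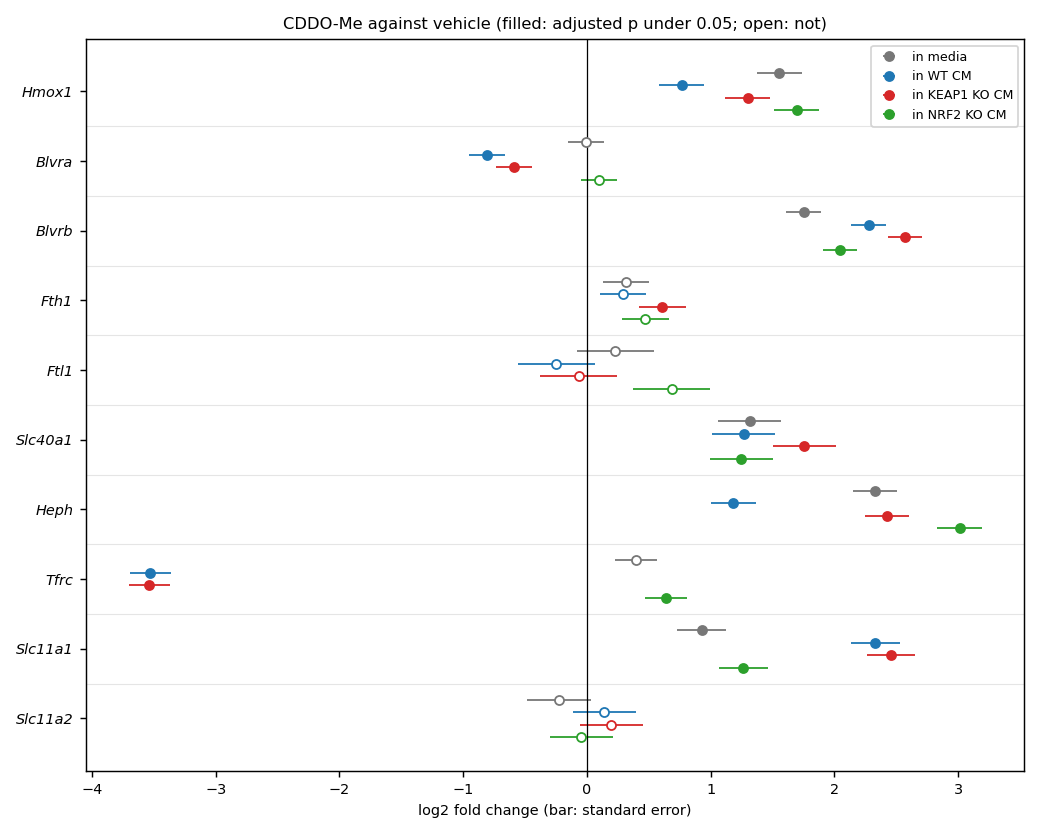
Log2 fold change (x axis, bars are the standard error) of CDDO-Me against vehicle for each gene in the 4 media; filled points passed an adjusted p of 0.05. *Hmox1*, *Blvrb*, *Slc40a1*, *Heph* and *Slc11a1* lie to the right in every medium, and *Tfrc* splits into -3.53 and -3.54 in WT CM and KEAP1 KO CM against 0.40 and 0.64 in control media and NRF2 KO CM.

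Tests of the difference between media counted 5 members whose CDDO-Me effect differed between WT CM and control media (1 higher, 4 lower, where 15% of all genes were called, 8.3% higher and 6.74% lower): *Slc11a1*, *Hmox1*, *Blvra*, *Heph* and *Tfrc*. Between KEAP1 KO CM and control media 3 differed (*Blvrb* and *Slc11a1* higher, *Tfrc* lower, where 14.7% of genes were called, 8.38% higher and 6.36% lower), and both counts share the control media libraries. None differed between NRF2 KO CM and control media, where 0% of genes were called by limma, with 1 member at an unadjusted p under 0.05 (*Heph*, 0.68, unadjusted p = 0.014 by limma). Between the KEAP1 KO and WT CMs none differed, again against 0% of genes and with *Heph* alone under 0.05. For *Tfrc* the latter difference was -0.01 (95% interval -0.51 to 0.49) and for *Hmox1* 0.53 (-0.00 to 1.07).

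A wider list of 49 heme and iron genes outside the 10 was read the same way, 44 of which passed the filter on low values. In WT CM/vehicle 4 of the 44 were called (2 higher, 2 lower) beside 7.34% of all genes, and in KEAP1 KO CM/vehicle 4 (1 higher, 3 lower) beside 7.96%, so these shares were near the background. *Trf*, the iron carrier that the product of *Tfrc* binds, rose from 603 TPM in media/vehicle to 1139 TPM in WT CM/vehicle (0.98, adjusted p = 1.5e-05) and 1071 TPM in KEAP1 KO CM/vehicle (0.82, adjusted p = 0.00012). *Flvcr1*, a transporter long described as a heme exporter, fell by 0.60 and 0.80 (adjusted p = 0.0094 and 0.0006), the former lost without WT CM/vehicle replicate 1 (0.0545). *Lrp1*, the receptor for heme bound to hemopexin, fell by 0.92 and 1.06 (adjusted p = 0.043 and 0.017), and its call was lost without any 1 of the 6 libraries in WT CM and without 2 of the 6 in KEAP1 KO CM (media/vehicle replicate 1, 0.0706, and KEAP1 KO CM/vehicle replicate 3, 0.0838). *Ncoa4*, the receptor that takes ferritin to the lysosome, fell by 0.67 in KEAP1 KO CM (adjusted p = 0.0037), and *Pcbp2*, an iron chaperone, rose by 0.41 in WT CM (adjusted p = 0.016), a call lost in 4 of the 6 refits without 1 library. In NRF2 KO CM/vehicle none was called by limma, with 10 at an unadjusted p under 0.05.

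With CDDO-Me, 7 of these 44 genes were called in control media (4 higher, 3 lower) beside 6.02% of all genes, and 8 in NRF2 KO CM (5 and 3) beside 9.78%. In WT CM 16 were called (8 and 8) beside 27.8%, and in KEAP1 KO CM 17 (7 and 10) beside 28.8%. Nothing particular to the list is read from these counts. With the replicate number as a block the NRF2 KO CM count was 13 (7 and 6), beside 14.6% of all genes. *Slc48a1*, which carries heme out of the phagolysosome, and *Bmp6*, a growth factor that drives hepcidin, rose in all 4 media, *Slc48a1* by 0.92 to 1.32. *Bmp6* was at low levels, with means of 0.280 and 2.21 TPM without and with CDDO-Me in control media, and its call there was lost in 5 of the 6 refits without 1 library (adjusted p from 0.102 to 0.178). With a vehicle mean this low, the *Bmp6* calls may not be independent of the filter on low values. *Slc39a8*, a metal importer, and *Ncoa4* fell in all 4, *Ncoa4* by log2 fold changes of -0.53 in media, -1.38 in WT CM, -1.19 in KEAP1 KO CM and -0.79 in NRF2 KO CM. The *Ncoa4* call in control media was lost without any 1 of the 6 libraries (adjusted p from 0.0556 to 0.120).

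*Trf* fell in the 2 media in which *Tfrc* fell. It went from 1136, 1268 and 1013 TPM to 189, 190 and 218 TPM in WT CM (-2.40, adjusted p = 7.5e-12), and from a mean of 1071 to 311 TPM in KEAP1 KO CM (-1.61, adjusted p = 2.7e-09). In control media (-0.35, adjusted p = 0.099) and NRF2 KO CM (-0.21, adjusted p = 0.36) its values were also below 0 but not called. Its CDDO-Me effect differed from that in control media by -2.04 in WT CM (adjusted p = 3.3e-08) and -1.25 in KEAP1 KO CM (adjusted p = 2.3e-05). Other genes of the list changed in WT CM and KEAP1 KO CM. *Cd163*, the receptor for hemoglobin bound to haptoglobin, fell by 2.83 and 2.68 in WT CM and KEAP1 KO CM, from means of 10.0 and 9.52 TPM to 0.486 and 0.503 TPM. *Fbxl5*, the iron sensor that removes iron regulatory protein 2, rose by 1.57 (adjusted p = 0.00016) and 2.05 (adjusted p = 7.5e-06), and *Slc25a37*, which brings iron into mitochondria, by 1.53 and 1.54. *Cp*, the plasma ferroxidase, fell by 1.58 in WT CM (adjusted p = 0.0094), a call lost in 2 of the 6 refits without 1 library, and by 1.48 in NRF2 KO CM (adjusted p = 0.037), where it was lost in 5 of 6 such refits and without the 2 libraries that stood apart (adjusted p = 0.168).

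*Alas1*, the rate-limiting enzyme of heme synthesis outside the red cell lineage, split the media the other way. CDDO-Me took it from 217, 262 and 384 TPM to 950, 957 and 1215 TPM in control media (1.89, adjusted p = 2.5e-06). The NRF2 KO CM libraries went from 184, 210 and 165 TPM to 780, 794 and 792 TPM (2.09, adjusted p = 5.8e-07). In WT CM it was at 190, 196 and 229 TPM with vehicle and 183, 184 and 197 TPM with CDDO-Me, and in KEAP1 KO CM at 200, 240 and 203 TPM and 305, 203 and 192 TPM, overlapping in both. The difference of its CDDO-Me effect from that in control media was -1.90 in WT CM (adjusted p = 4.1e-05) and -1.62 in KEAP1 KO CM (adjusted p = 0.00026). *Steap2*, a metalloreductase, rose by 1.13 in control media (adjusted p = 0.027), a call lost in 4 of the 6 refits without 1 library.

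**Figure D5:**
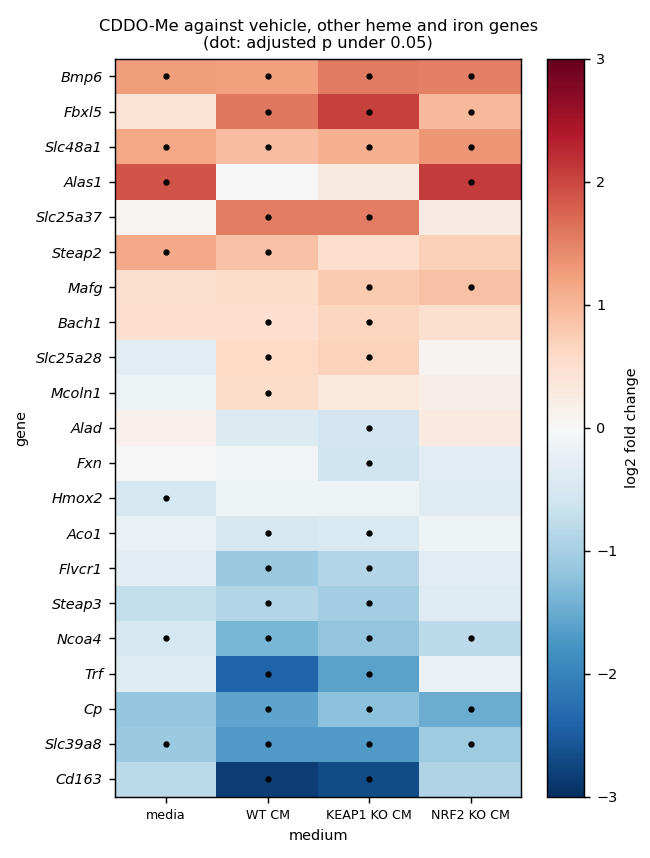
Log2 fold change (colour) of CDDO-Me against vehicle in the 4 media (x axis) for the 21 of 44 other heme and iron genes called in at least 1 medium; dots mark an adjusted p under 0.05. *Alas1* is red in control media and NRF2 KO CM (1.89 and 2.09), and *Trf* and *Cd163* are dark blue in WT CM (-2.40 and -2.83) and KEAP1 KO CM.

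Across the 24 libraries, which share their media and treatments, Pearson's r of log2 TPM described which genes ran most alike. Among the members, *Blvrb* ran with *Slc11a1* (r = 0.95), *Hmox1* with *Heph* (0.94) and *Fth1* with *Slc40a1* (0.91), while *Tfrc* ran against *Slc11a1* (-0.75) and *Blvrb* (-0.65). Of all tested genes, those most like *Hmox1* were *Afp*, *Gss* and *Pir* (0.97 each), those most like *Blvrb* were *Prdx1* (0.99) and *Pla2g7* (0.98), and those most like *Heph* were *Nqo1* and *Il36g* (0.96) and *Gm49528* (0.95). *Tfrc* was most like *Bhlhe40*, *Cd300lb* and *Tmem267* (0.96 each) and *Slc11a1* most like *Abr* and *Vps37b* (0.97). *Fth1* was most like *Bambi-ps1* (0.94), *Glipr1* and *Slc40a1* (0.91), and *Slc40a1* most like *Gstm1* (0.93), *Fth1* and *Ndrg1* (0.91). For *Ftl1* they were *Git1*, *Cebpa* (0.94) and *Fhip2b* (0.92), for *Blvra* *Aph1c* (0.95), *Aopep* and *Wsb2* (0.94), and for *Slc11a2* *Fam53c* (0.93) and *Htra2* (0.92).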

How the data were processed

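The study extracted total RNA of the 24 BMDM samples and sequenced its poly-A mRNA. The authors deposited 1 table of TPM values per gene, made with kallisto on GRCm39 per the labels and the study's methods. Each column sums to the same total, and the depth behind the values is unknown. A row without a gene name, 0.0199 to 0.0635% of TPM, was left out. Groups came from the sample labels. Genes above 1 TPM in at least 3 libraries (13661) were scaled by unweighted trimmed means of M values (trims of 30% and 5%) and fitted as log2(TPM + 1) with limma 3.58.1 (R 4.3.3), all 24 libraries in 1 model of 8 groups with 16 residual degrees of freedom, a trend on the mean level, two-sided tests and Benjamini-Hochberg adjustment over all tested genes in each of 13 comparisons. Differences between media in the CDDO-Me effect were interaction contrasts. The procedure was tested on simulated data.

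The members and gene lists were chosen with earlier results of these data known. All 10 members are named. Of the wider list, up to 4 called genes with the largest change per comparison and a mean of at least 5 TPM in the compared groups are named, and the 3 genes most like each member, some of which are not reported here. *Slc25a37*, the *Ncoa4* values in the CDDO-Me comparisons, the genes called in all 4 media and the *Alas1* and *Trf* values in further media were chosen after their values were seen.

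Same-numbered libraries deviated together (r above 0.1 in every pair) for WT CM against media (0.145 to 0.387), KEAP1 KO CM against WT CM (0.150 to 0.474), and CDDO-Me in media (0.156 to 0.452) and in NRF2 KO CM (0.504 to 0.717), and not in every pair for the other 5 simple comparisons. Replicates 1 and 2 also deviated together across numbers, for CDDO-Me in NRF2 KO CM (r = 0.586 and 0.474) and in media (0.142 and 0.125). In NRF2 KO CM replicate 3 ran against both (-0.680 to -0.566). The labels do not say what a number shares. Alternatives changed the scaling, pseudocount, filter, trend, library weights, replicate block, groups in the fit and single libraries. Sequences are from GRCm39 with GENCODE vM39. The number of libraries per group limits the precision.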

Additional observations from a re-analysis of the deposited data

Results flagged for a closer look

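The 8 differences between media in the CDDO-Me effect that passed the interaction test by limma over all genes are listed here. Against control media, the log2 effect in WT CM was lower for *Hmox1* (-0.79), *Blvra* (-0.80), *Heph* (-1.14) and *Tfrc* (-3.93) and higher for *Slc11a1* (1.40). In KEAP1 KO CM it was higher for *Blvrb* (0.82) and *Slc11a1* (1.53) and lower for *Tfrc* (-3.93). All 8 share the 6 control media libraries. *Heph* passed the filter on low values only through its CDDO-Me libraries. The *Hmox1* difference was lost in 10 of 12 refits without 1 library and with no filter on low values (adjusted p = 0.0623). The others kept their call in every alternative in which they were tested. *Heph*, with a mean of 3.52 TPM over the 24 libraries, was not tested under the stricter filter of a mean of at least 5 TPM.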

How the results depend on the processing

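Every alternative was fitted on all genes. The 44 called member values kept their direction in all 747 refits and their call in 716. The 26 member values given as not called stayed so in 415 of 450 refits, became called in 33, and changed sign in 2, both the *Tfrc* difference between KEAP1 KO CM and WT CM (-0.046 without WT CM/vehicle replicate 1 and -0.035 without KEAP1 KO CM/vehicle replicate 3, against 0.05, with a highest value of 0.17 without WT CM/vehicle replicate 3). The cause of the lost and added calls was not tested.

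With array weights, members called became 5 for WT CM against media (reported as 3), 3 for KEAP1 KO CM against WT CM (0), 5 for WT CM against NRF2 KO CM (2), 8 and 6 for the CDDO-Me effect in WT CM and KEAP1 KO CM against media (5 and 3) and 1 for KEAP1 KO CM against WT CM (0). Genes of the wider list became 16 and 25 for WT CM and KEAP1 KO CM against media (4 and 4), and 23, 27 and 19 for CDDO-Me in media, KEAP1 KO CM and NRF2 KO CM (7, 17 and 8). All genes gained calls under these weights, with 30.2% and 36.8% called for WT CM and KEAP1 KO CM against media, 7.91% for KEAP1 KO CM against WT CM, 24.9% for WT CM against NRF2 KO CM, 26.3%, 51.4% and 22.2% for the 3 CDDO-Me comparisons and 39.5%, 39.4% and 0.132% for the effect differences. With the compared groups alone, members became 5 for WT CM against media, 1 for WT CM against NRF2 KO CM, 3 for CDDO-Me in NRF2 KO CM (6), and 8 and 5 for the 2 effect differences from media. The wider list became 10, 12, 15 and 2 for WT CM, KEAP1 KO CM, and CDDO-Me in media and NRF2 KO CM, beside 16.5%, 17.5%, 12.8% and 1.13% of all genes, with 1.3% for WT CM against NRF2 KO CM and 28.2% and 26.3% for the effect differences. Without the 2 libraries that stood apart, members became 5, 4, 8 and 5 for WT CM against media, WT CM against NRF2 KO CM and the 2 effect differences, and the wider list 12, 13 and 18 for WT CM, KEAP1 KO CM and CDDO-Me in media. Of all genes 19.1%, 15.4%, 28.9% and 29.8% were then called in the first 4 and 21.8% and 15.6% in the last 2.

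With the replicate number as a block, 4 members were called for WT CM against NRF2 KO CM, and 9 and 13 genes of the wider list for KEAP1 KO CM against media and CDDO-Me in NRF2 KO CM, beside 18.8%, 13% and 14.6% of all genes. The block changed the call of 2 named values, the *Blvrb* (0.039) and *Blvra* (0.032) effect differences, and of no other. Without single libraries, members called ranged from 2 to 3 in WT CM and 3 to 5 in KEAP1 KO CM against media (3 without KEAP1 KO CM/vehicle replicate 2) and 2 to 4 for WT CM against NRF2 KO CM (4 without NRF2 KO CM/vehicle replicate 1). With CDDO-Me they were 5 in each refit in media, 7 in WT CM, 7 to 8 in KEAP1 KO CM and 5 to 7 in NRF2 KO CM. Effect differences from media gave 4 to 5 in WT CM and 3 to 4 in KEAP1 KO CM. The wider list ranged from 1 to 4 in WT CM (lowest without WT CM/vehicle replicate 1) and 3 to 4 in KEAP1 KO CM, and with CDDO-Me from 3 to 5 in media, 13 to 15 in WT CM, 14 to 17 in KEAP1 KO CM and 6 to 10 in NRF2 KO CM.

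Without scaling, the median log2 fold change of all genes with CDDO-Me moved to -0.12 in WT CM and -0.17 in KEAP1 KO CM, from -0.03 and -0.02. The percent of calls that were higher then went from 58.9 to 48.2 for WT CM against media, 61.5 to 44.2 for WT CM against NRF2 KO CM, 49.9 to 39.1 and 50.5 to 34.6 for CDDO-Me in WT CM and KEAP1 KO CM, and 56.9 to 40.5 for the KEAP1 KO CM effect difference. Of the 41 named values of the wider list, with 673 refits, 48 refits lost a call and none changed direction. Depth is unknown in TPM, so no counting interval was given.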
